A study of Mus musculus with 6 samples.

Results

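The genes described here are 9 genes of hepatic glucose handling, out of 34745 genes listed for the livers of this study. They were taken as the entries whose gene name equals Pck1, G6pc, Fbp1, Ppargc1a, Hk2, Pklr, Pkm, Gys2 or Slc2a2. Each name occurred once, and all 9 passed the filter on low counts. By the labels and methods, both groups were C57BL/6J mice of WT genotype, 8 to 10 weeks old, fasted for 12 hours and injected i.p. with APAP (acetaminophen, 300 mg/kg) or with saline. APAP livers were taken 12 hours after the injection, and the sources used here give no time for the saline livers and no feeding schedule after the injection. Bulk RNA-Seq was analysed for 5 livers, 2 APAP (replicates 1 and 3, here APAP1 and APAP3) and 3 saline (here WT1, WT2 and WT3), while APAP replicate 2 was not analysed here. The WT libraries were read as the saline group, since the only other name in the table is that of APAP. Their sex-linked genes, given below, differ from those of the male mice that the methods describe, so it is uncertain whether the strain, age, fast and injection given here hold for these 3 libraries, on which all comparisons here depend.

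The liver releases glucose during a fast, first from glycogen and then by gluconeogenesis, the synthesis of glucose from lactate, glycerol and amino acids. The route runs against glycolysis and bypasses its irreversible steps with separate enzymes: pyruvate carboxylase with the PEPCK encoded by Pck1, fructose-bisphosphatase (Fbp1) and glucose-6-phosphatase (G6pc). Glucose crosses the hepatocyte membrane through GLUT2 (Slc2a2), is trapped by a hexokinase, and leaves glycolysis through pyruvate kinase, whose liver form is encoded by Pklr and whose form in most other tissues is encoded by Pkm. APAP overdose kills mainly the hepatocytes around the central vein, whereas gluconeogenic enzymes are most abundant in hepatocytes around the portal vein.

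The total count was 13378445 to 15976339 per library, and levels are given as CPM, counts scaled to a common library total with TMM factors. A gene was called when edgeR's quasi-likelihood test gave an adjusted p (Benjamini-Hochberg over 13734 genes) under 0.05. Libraries stood apart by sex-linked genes and by muscle RNA. Sex-linked genes separated the groups: Xist, the RNA of the inactive X chromosome, was 0.764 and 1.73 CPM in the APAP livers and 289.6 to 914.3 CPM in the saline livers, and the Y-linked Ddx3y was 79.0 and 61.7 CPM against 0 to 0.0668 CPM. The methods name male mice for the study. Sex-linked expression and treatment coincided here and cannot be told apart in any fold change below. Skeletal muscle RNA was present in 3 libraries, drawn from both groups: the summed level of 6 muscle genes (Acta1, Ckm, Myh4, Mylpf, Tnnt3 and Tnni2) was 352.7 CPM in APAP3, 553.7 CPM in WT2 and 886.8 CPM in WT3, against 0.411 CPM in APAP1 and 1.97 CPM in WT1. Liver identity was clear in every library, with 10 hepatocyte genes such as albumin summing to 100200 to 142800 CPM with APAP and 141600 to 200400 CPM with saline. In bulk liver, fewer cells of a type and less RNA per cell cannot be told apart.

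The proximal promoters of Pck1 and G6pc are shown because these genes encode an early and the last enzyme of the route and carry a shared sequence word. Each sequence holds the 250 bases before the start that RefSeq (GRCm38.p6) gives, Pck1 at chr2:173152823-173153072 and G6pc at chr11:101367466-101367715, both on the plus strand, with the word TTACGTNA in capitals. It is a variant of the cAMP response element TGACGTCA.
Pck1: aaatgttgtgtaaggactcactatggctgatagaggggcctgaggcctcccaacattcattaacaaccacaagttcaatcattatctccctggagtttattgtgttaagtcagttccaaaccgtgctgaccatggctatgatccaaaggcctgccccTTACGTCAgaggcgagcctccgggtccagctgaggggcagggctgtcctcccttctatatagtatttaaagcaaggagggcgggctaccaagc
G6pc: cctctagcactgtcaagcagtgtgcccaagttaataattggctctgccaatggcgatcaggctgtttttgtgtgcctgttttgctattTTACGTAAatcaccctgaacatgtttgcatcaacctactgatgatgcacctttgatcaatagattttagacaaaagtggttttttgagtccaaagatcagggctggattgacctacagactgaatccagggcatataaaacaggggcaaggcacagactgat
The word starts 93 bases before the RefSeq start of Pck1 and 162 bases before that of G6pc. The deposited table places these starts 25 and 155 bases further upstream, so counted from there the word starts 68 and 7 bases before them. RefSeq windows were found for 8 of the 9 genes (10 windows, none for Gys2), and only Pck1 and G6pc held TTACGTNA on either strand, as did 0.788% of 32851 promoter windows of this length. None held the full element TGACGTCA (1.55% of windows), the forkhead word TGTTTAC (3.17%) or the E box CACGTG (6.02%), and 1 window of Pkm held the C/EBP word TTGCNNAA (9.56%). These matches describe letters within a short window, and no binding was measured.

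In APAP livers the transcripts of the 3 gluconeogenic enzymes were lower in every library than in any saline liver, at 44.5% (Pck1), 18.8% (G6pc) and 35.8% (Fbp1) of the saline mean. The liver pyruvate kinase Pklr was also lower in both APAP livers, at 47.3% of the saline mean, and the other pyruvate kinase gene, Pkm, was higher in both, at 2.18-fold. Levels of Hk2, Gys2, Slc2a2 and Ppargc1a overlapped between the groups. Only Fbp1 was called, so 1 of 9 genes (11.1%) passed, against 7.23% of all genes tested, and 1 of 9 was called lower and 0 of 9 higher, against 3.53% and 3.7% of all genes. By the rule of an unadjusted P under 0.05 and a 1.5-fold or larger change, 3 of the 9 were lower (G6pc, Fbp1 and Pklr, against 11.2% of all genes) and 1 was higher (Pkm, against 12.3%). The groups did not overlap for 5 of the 9, 4 lower and 1 higher, as for 44.1% of all genes (20.1% lower, 24% higher). The median log2 fold change of the 9 genes was −1.07, and that of all genes tested was 0.03. With 2 against 3 libraries, p-values set a difference only against the spread between these samples, which edgeR estimates for each gene with help from the other genes tested.

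**Figure D1:**
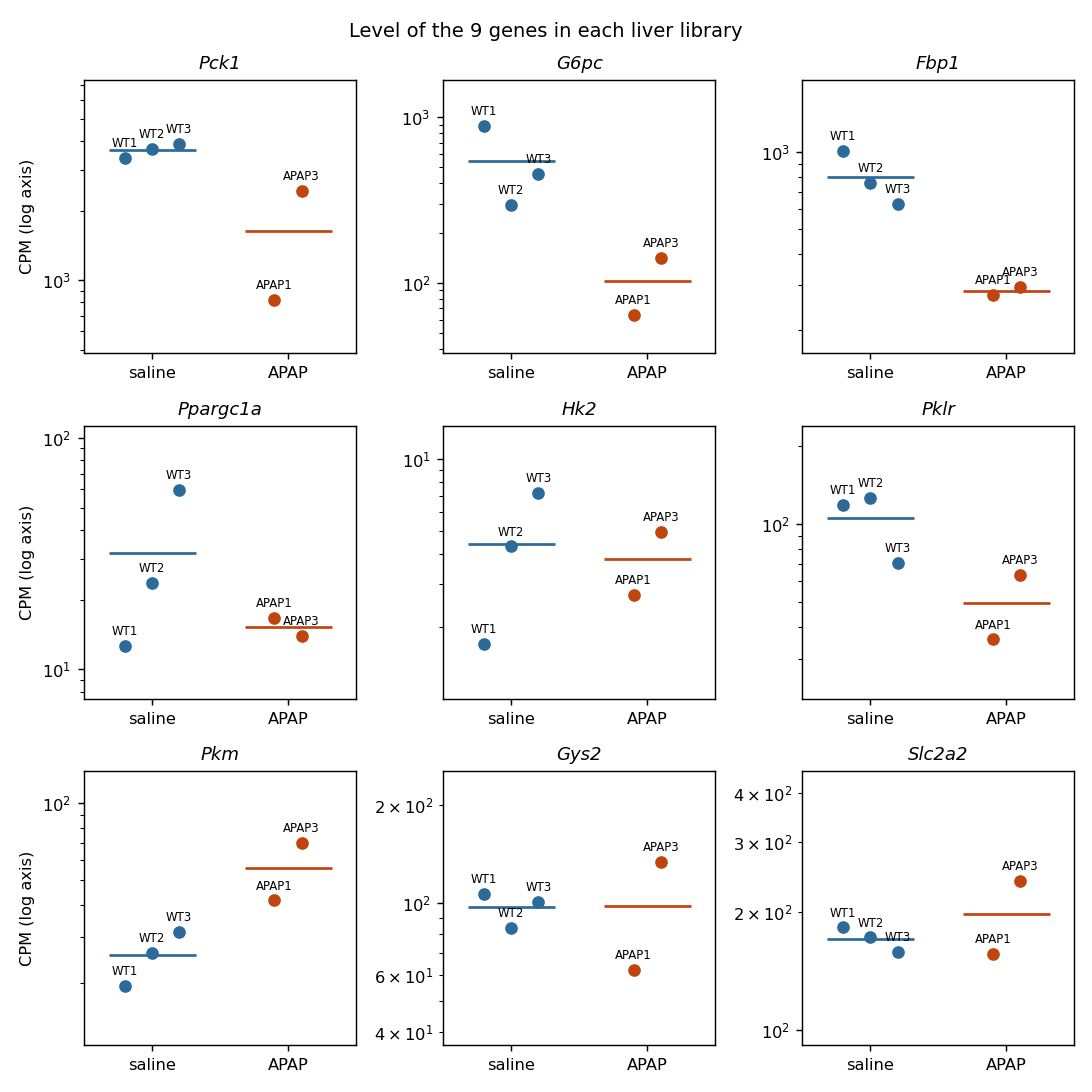
Level of each of the 9 genes (TMM-scaled CPM, log10 axis) in the 2 APAP and 3 saline libraries, 1 point per library and a line at each group mean. The APAP points of Pck1, G6pc, Fbp1 and Pklr lie below all saline points, those of Pkm lie above them, those of Hk2 and Ppargc1a lie within the saline range, and those of Gys2 and Slc2a2 lie on either side of it.

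Pck1 encodes cytosolic PEPCK, which makes phosphoenolpyruvate from oxaloacetate, and lies at chr2:173153048-173159273 on the plus strand (GRCm38, as are all coordinates). It was at 819.2 CPM in APAP1 and 2435 CPM in APAP3, and at 3379, 3705 and 3878 CPM in WT1, WT2 and WT3. The APAP livers were both below the saline range and differed 2.97-fold from each other. The mean was 1627 ± 1142 CPM (SD, n = 2) with APAP and 3654 ± 253.5 CPM (SD, n = 3) with saline. The fitted log2 fold change was −1.17 (SE 0.495) with an adjusted p of 0.203 in edgeR, so the difference was not called. It moved with single APAP livers, to −0.58 without APAP1 and −2.17 without APAP3, and was not called in either fit.

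G6pc encodes the catalytic subunit of glucose-6-phosphatase, which frees glucose from glucose-6-phosphate, and lies at chr11:101367561-101377903 on the plus strand. It was at 63.8 and 140.4 CPM in APAP1 and APAP3, and at 882.9, 294.0 and 454.7 CPM in WT1, WT2 and WT3. Both APAP livers were below the lowest saline liver, and the saline livers themselves spread widely around their mean of 543.9 ± 304.4 CPM (SD, n = 3). G6pc had the largest fitted difference of the 9 genes, a log2 fold change of −2.41 (SE 0.583), with an adjusted p of 0.0557 in edgeR that just missed the threshold. Without single libraries the log2 fold change lay between −3.10 (without APAP3) and −1.87 (without WT1).

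Fbp1 encodes the fructose-1,6-bisphosphatase of liver, which bypasses phosphofructokinase, and lies at chr13:62864753-62888282 on the minus strand. It was at 275.9 and 296.4 CPM in APAP1 and APAP3, and at 1013, 755.2 and 627.4 CPM in WT1, WT2 and WT3. The APAP livers were close together (286.1 ± 14.5 CPM, SD, n = 2), and the lowest saline liver was more abundant than either. Fbp1 fell, with a log2 fold change of −1.48 (SE 0.306) and an adjusted p of 0.0374 in edgeR. The call held without WT3 (adjusted p 0.0371, −1.63), and was lost without APAP1 (0.207, −1.43), APAP3 (0.133, −1.54), WT1 (0.0616, −1.26) or WT2 (0.126, −1.52) and with a term for muscle RNA (0.0560, −1.50).

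Other genes of the route showed no call: 0 of 21 tested genes of a list of gluconeogenic enzymes, carriers and transaminases were higher or lower, with a median log2 fold change of −0.15. By the rule of unadjusted P and 1.5-fold change, 4 of the 21 were higher and 5 lower, against 12.3% and 11.2% of all genes tested. Named after their values were seen, Got1, the cytosolic aspartate transaminase, was at 121.0 and 58.97 CPM after APAP, against 234.8, 342.6 and 639.4 CPM with saline (−2.17, SE 0.533, adjusted p 0.0578 in edgeR), and the groups also did not overlap for Mdh1 (47.9% of the saline mean), Mpc2 (50.3%), Gpd1 (2.05-fold) and Ldha (2.11-fold). Pcx, which encodes pyruvate carboxylase, was at 336.9 and 371.7 CPM after APAP, against 426.7, 319.6 and 314.5 CPM with saline, a log2 fold change of 0.00 (SE 0.254, adjusted p 0.997 in edgeR). The mitochondrial PEPCK gene Pck2 was low, at 3.09 to 5.11 CPM over all 5 livers, and overlapped between the groups. Slc37a4, whose product carries glucose-6-phosphate to the phosphatase, was at 151.2 and 86.4 CPM after APAP, against 100.6, 134.2 and 175.2 CPM with saline. Its groups overlapped, with a log2 fold change of −0.20 (SE 0.342, adjusted p 0.763 in edgeR). The ubiquitous phosphatase gene G6pc3 was at 9.93 and 5.996 CPM after APAP, against 4.48, 3.92 and 3.81 CPM with saline, higher in both APAP livers but not called (0.97, SE 0.327, adjusted p 0.127 in edgeR). Fbp2, the bisphosphatase of muscle, had 26 and 3 counts with APAP and 1, 1 and 2 counts with saline, and was not tested.

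Ppargc1a encodes PGC-1α, a coactivator that raises gluconeogenic gene expression in the fasted liver, and lies at chr5:51454250-51567726 on the minus strand. It was at 16.6 and 13.9 CPM in APAP1 and APAP3, and at 12.6, 23.7 and 59.5 CPM in WT1, WT2 and WT3. The saline livers differed among themselves more than the groups did, and WT1 was below both APAP livers. The log2 fold change was −1.07 (SE 0.603) with an adjusted p of 0.329 in edgeR, and −0.26 (adjusted p 0.703) without WT3 alone. Muscle also expresses this gene. In the saline livers its order was that of their muscle RNA, and in the APAP livers it was not, since APAP1 without muscle RNA was the higher. The related coactivator gene Ppargc1b was at 3.35 and 0.865 CPM with APAP and 2.21 to 2.99 CPM with saline, with overlapping groups.

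Slc2a2 encodes GLUT2, the carrier that lets glucose into and out of hepatocytes, and lies at chr3:28697903-28731359 on the plus strand. It was at 156.2 and 238.8 CPM in APAP1 and APAP3, and at 182.4, 172.1 and 158.2 CPM in WT1, WT2 and WT3. One APAP liver was below and the other above all saline livers, and the log2 fold change was 0.21 (SE 0.257, adjusted p 0.668 in edgeR). Slc2a1, which encodes GLUT1, the carrier of most other cells, was at 42.3 and 29.6 CPM after APAP, against 11.9, 11.8 and 14.5 CPM with saline. Its groups did not overlap, and Slc2a1 rose 2.82-fold on the ratio of means, with a log2 fold change of 1.49 (SE 0.234, adjusted p 0.0174 in edgeR). This call held without APAP3 or WT3 and was lost without APAP1 (1.22, adjusted p 0.116), WT1 (1.46, 0.0503) or WT2 (1.44, 0.0905). Whether the 2 carriers differed in their change was not tested.

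Hk2 encodes a hexokinase of muscle, fat and growing cells that is scarce in liver, and lies at chr6:82725025-82774454 on the minus strand. It had 46 and 80 counts in APAP1 and APAP3 and 19, 65 and 108 counts in WT1, WT2 and WT3, or 2.70, 4.95, 1.703, 4.32 and 7.22 CPM. The groups overlapped fully, and within each group the libraries with muscle RNA were the higher ones. The log2 fold change was −0.22 (SE 0.606, adjusted p 0.866 in edgeR), and its sign turned under library size scaling (0.10) and without APAP1 or WT3 (0.16 and 0.33).

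Hkdc1, another gene of the hexokinase family, had 61 and 31 counts with APAP and 5, 4 and 5 counts with saline. Hkdc1 passed the filter on low counts (minimum count 10) only through the APAP livers, so a call in the other direction was not open to it. With at least 10 counts required in every library it was not tested. It rose, with a log2 fold change of 2.97 (SE 0.566, adjusted p 0.0305 in edgeR), and the call was lost without any 1 of the 5 libraries (adjusted p 0.229 without APAP1, 0.0643 without APAP3, 0.0605 without WT1, 0.117 without WT2 and 0.0617 without WT3, with log2 fold changes of 2.45 to 3.33). Hk1 was at 5.58 and 5.01 CPM with APAP and 1.74 to 3.85 CPM with saline and was not called (0.78, SE 0.419, adjusted p 0.305 in edgeR). Hk3, a hexokinase of blood cells, was at 3.23 to 4.33 CPM in all livers, with a log2 fold change of −0.01 (SE 0.332).

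Pklr encodes the pyruvate kinase of liver and red blood cells, and lies at chr3:89136142-89146784 on the plus strand. It was at 35.8 and 63.4 CPM in APAP1 and APAP3, and at 118.2, 125.8 and 70.4 CPM in WT1, WT2 and WT3. The APAP livers were both lower, although APAP3 was close to WT3. The log2 fold change was −1.08 (SE 0.364) with an adjusted p of 0.126 in edgeR, and lay between −1.56 (without APAP3) and −0.72 (without APAP1). Hcn3, which overlaps Pklr on the opposite strand, had at most 6 counts in any library.

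Pkm encodes the pyruvate kinase of muscle, brain, white blood cells and growing cells, and lies at chr9:59656368-59679375 on the plus strand. It was at 41.8 and 70.0 CPM in APAP1 and APAP3, and at 19.5, 26.0 and 31.5 CPM in WT1, WT2 and WT3. Both APAP livers exceeded the highest saline liver. The log2 fold change was 1.12 (SE 0.301) with an adjusted p of 0.0739 in edgeR, and lay between 0.69 (without APAP3) and 1.45 (without APAP1). With a term for muscle RNA it was 1.21 (SE 0.216) with an adjusted p of 0.0319. The Pkm counts are uncertain, since other genes, most often Gm6560, share 34.4% of the words of 50 bases in its transcript. For the other 8 genes this share was at most 0.0156%.

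**Figure D2:**
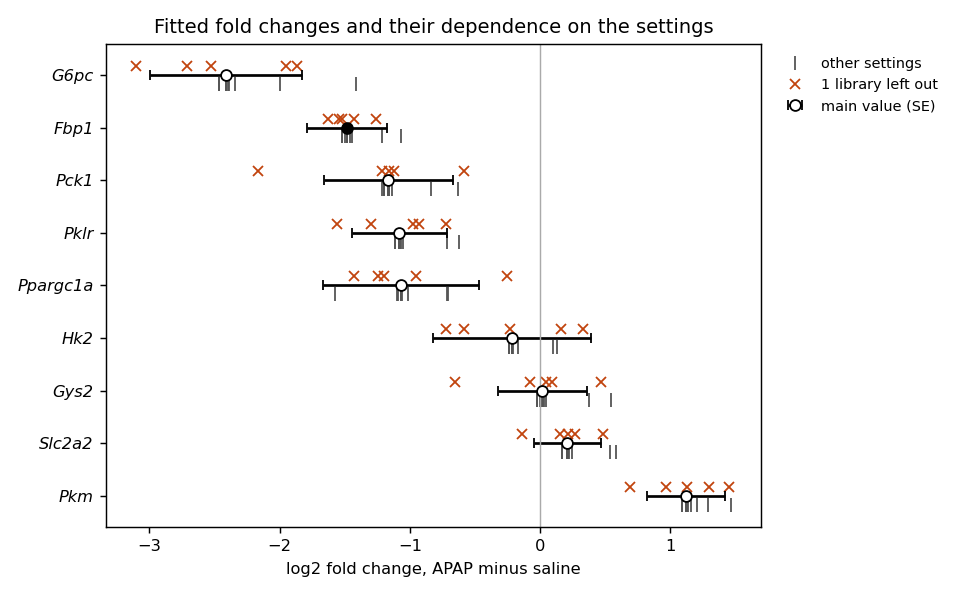
Fitted log2 fold change (APAP minus saline) of each of the 9 genes with its standard error as a bar, from edgeR, with crosses for fits that leave out 1 library and ticks for the other settings. Filled circles mark an adjusted p under 0.05. Fbp1, at −1.48, was the only gene with an adjusted p under 0.05, and G6pc at −2.41 and Pkm at 1.12 mark the ends of the range.

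The ratio of an isoenzyme pair within a library does not depend on how libraries are scaled. With lengths of all exons merged, Pkm was at 0.755 and 0.715 of Pklr in APAP1 and APAP3, and at 0.107, 0.134 and 0.290 of Pklr in WT1, WT2 and WT3. The ratio was higher in both APAP livers than in any saline liver. Its level rests on the lengths used, since from raw counts it was 1.17 and 1.10 in APAP1 and APAP3 and 0.165 to 0.448 in the saline livers, and with the longest coding transcripts 1.39 and 1.32 against 0.197 to 0.534, so which of these genes was more abundant in the APAP livers is not settled. The difference between the groups does not depend on the lengths. The mean log2 ratio was 2.19 higher with APAP, a 4.57-fold difference (SD of the log2 ratio 0.0566 with APAP, n = 2, and 0.755 with saline, n = 3). The exact two-sided permutation test gave p = 0.2, the smallest that 10 arrangements of 2 against 3 libraries allow.

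Of 11 neutrophil genes tested, 9 rose, against 3.7% of all genes tested. Camp, Ngp, Retnlg and Mmp8 among them had under 10 counts in every saline liver. They passed the filter on low counts only through the APAP livers, so a call in the other direction was not open to them. All 12 in the list summed to 2175 and 745 CPM in APAP1 and APAP3 and 14.9 to 71.6 CPM with saline, mostly from Lcn2 (2045 and 660.9 CPM with APAP), and without Lcn2 to 129.5 and 84.1 CPM against 5.38 to 9.42 CPM. Of 10 monocyte and macrophage genes (11 entries, with Itgam listed under 2 identifiers), 3 rose, and the entries summed to 399.3 and 510.1 CPM with APAP and 133.6 to 179.5 CPM with saline. Without Spp1 the sums overlapped, at 123.0 and 197.0 CPM against 95.9 to 139.5 CPM. Chil3, among the 3 that rose, also passed the filter only through the APAP livers (2, 3 and 4 counts with saline). White blood cells express Pkm rather than Pklr, and their part in the ratio of Pkm to Pklr was not tested.

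**Figure D3:**
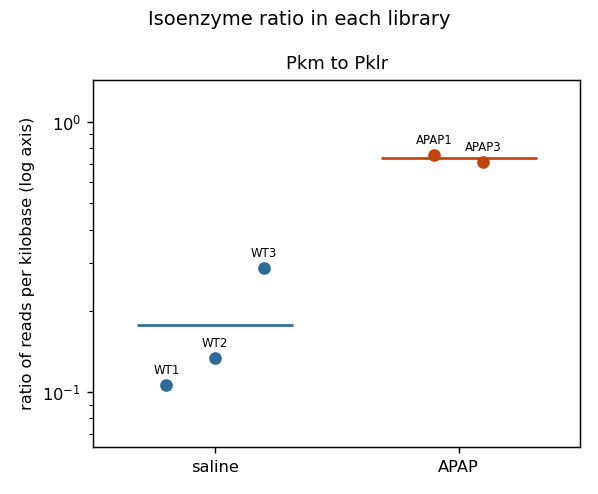
Ratio of Pkm to Pklr, corrected for lengths of all exons merged, in each library (log10 axis, 1 point per library, a line at the arithmetic mean of each group). Both APAP points (0.755 and 0.715) lie above the 3 saline points (0.107 to 0.290).

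Gys2 encodes the glycogen synthase of liver, and lies at chr6:142422613-142473109 on the minus strand. It was at 62.1 and 134.1 CPM in APAP1 and APAP3, and at 106.4, 84.0 and 100.8 CPM in WT1, WT2 and WT3. One APAP liver was below and the other above the saline range, as for Slc2a2. The means were 98.1 ± 51.0 CPM (SD, n = 2) with APAP and 97.1 ± 11.6 CPM (SD, n = 3) with saline, with a log2 fold change of 0.01 (SE 0.342, adjusted p 0.986 in edgeR). Without APAP3 it was −0.66 and without APAP1 0.47, so the 2 APAP livers set its sign. Gys1, the glycogen synthase of muscle, was at 4.88 and 6.31 CPM with APAP and 2.42 to 10.8 CPM with saline, with overlapping groups.

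Genes for both glycogen breakdown and the control of its synthesis were among those called. Pygl, the glycogen phosphorylase of liver, was at 86.4 and 63.5 CPM after APAP, against 398.9, 371.7 and 320.2 CPM with saline. APAP livers held 20.6% of the saline mean, and the log2 fold change was −2.28 (SE 0.274, adjusted p 0.00706 in edgeR). Ppp1r3b, whose product brings protein phosphatase 1 to glycogen in liver, was at 79.7 and 102.2 CPM after APAP, against 396.3, 643.6 and 482.7 CPM with saline, a log2 fold change of −2.48 (SE 0.324, adjusted p 0.00981 in edgeR). The entry named Pgm1 (chr5:64092950-64128351) rose, from 4.75, 4.65 and 7.02 CPM with saline to 25.9 and 15.6 CPM with APAP (1.92, SE 0.320, adjusted p 0.0204 in edgeR). The entry named Pgm2 (chr4:99929414-99987294) was far more abundant, at 200.8 and 230.9 CPM with APAP and 224.8 to 290.1 CPM with saline. Its groups overlapped (−0.21, SE 0.239, adjusted p 0.644 in edgeR). Both names are those of the deposited annotation, and which enzyme each stands for was not checked. Of 20 tested genes of glycogen metabolism, 1 rose, 2 fell and 17 were not called. Leaving out libraries ended the call of Pygl without WT2 (adjusted p 0.0501, −2.26), of Ppp1r3b without APAP1 (0.0849, −2.31), and of Pgm1 without APAP1 (0.136, 1.52), WT1 (0.0606, 1.85) or WT2 (0.0933, 1.81).

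Per length of all exons merged, the order of the 9 genes in saline livers was Pck1, Fbp1, G6pc, Gys2, Pklr, Slc2a2, Pkm, Ppargc1a and Hk2, from a mean of 1066 RPKM (the TMM-scaled CPM per kilobase of exons) for Pck1 through 469.1 RPKM for Fbp1 and 225.3 RPKM for G6pc to 0.739 RPKM for Hk2. Ranges overlapped among Gys2 (31.6 to 40.0 RPKM), Pklr (21.7 to 38.9 RPKM) and Slc2a2 (27.5 to 31.7 RPKM). They also overlapped between Pkm (3.89 to 6.29 RPKM) and Ppargc1a (1.92 to 9.03 RPKM). Within each saline library Gys2 was above Slc2a2, by little in WT2 (31.6 and 29.9 RPKM). Pklr against either of them, and Pkm against Ppargc1a, changed order between saline libraries. In APAP1 and APAP3, G6pc (26.4 and 58.2 RPKM) lay somewhat above Gys2 (23.4 and 50.5 RPKM). It was just below Slc2a2 in APAP1 (27.1 RPKM) and above it in APAP3 (41.5 RPKM). Pck1 (238.9 and 710.1 RPKM) and Fbp1 (162.1 and 174.1 RPKM) still led the order. With lengths of the longest coding transcripts the order of saline means was unchanged, and Pkm was at 10.6 RPKM in place of 5.13 RPKM.

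Across 5 lists of other genes of these pathways, 109 of 110 listed genes were found and 106 tested, of which 5 rose, 7 fell and 94 were not called. The share called was 11.3%, against 7.23% of all genes tested, and the median log2 fold change was −0.16. In the list of glycolysis, 1 of 26 rose (Hkdc1, which passed the filter on low counts only through the APAP livers) and 2 fell. Pdk1 and Pdk2 encode kinases that shut off pyruvate dehydrogenase and so spare pyruvate. Pdk1 was at 20.7 and 16.7 CPM after APAP, against 109.3, 85.5 and 74.5 CPM with saline, and fell by 2.26 on the log2 scale (SE 0.264, adjusted p 0.00666 in edgeR). Pdk2 was at 32.02 and 30.97 CPM after APAP, against 93.1, 83.0 and 61.3 CPM with saline, and fell by 1.33 (SE 0.247, adjusted p 0.0282 in edgeR). The call of Pdk1 held without any 1 library, and that of Pdk2 held without WT3 and was lost without APAP1 (−1.35, adjusted p 0.168), APAP3 (−1.32, 0.127), WT1 (−1.18, 0.0577) or WT2 (−1.30, 0.106) and with library size scaling (−0.92, 0.0600).

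In the list of hexose transport and entry, 2 of 14 genes rose, Slc2a1 among them, and 0 fell. Slc2a4, the insulin-dependent carrier of muscle and fat, was higher in the 3 libraries with muscle RNA, at 3.03 CPM in APAP3, 5.38 CPM in WT2 and 10.8 CPM in WT3 against 1.06 CPM in APAP1 and 0.179 CPM in WT1.

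Among 25 transcriptional and hormonal regulators, 1 rose and 3 fell, with a median log2 fold change of −0.52. Egr1, an immediate early transcription factor, was at 134.4 and 294.2 CPM after APAP, against 14.5, 8.97 and 19.9 CPM with saline (3.89, SE 0.453, adjusted p 0.00666 in edgeR), and its call held without any 1 library. Mlxipl encodes ChREBP, a glucose-sensing factor known to drive Pklr, and was at 60.6 and 52.9 CPM after APAP, against 136.6, 377.5 and 236.9 CPM with saline (−2.14, SE 0.448, adjusted p 0.0385 in edgeR). Klf15, a fasting-induced factor of amino acid use and gluconeogenesis, was at 36.1 and 79.2 CPM after APAP, against 153.9, 235.6 and 300.1 CPM with saline (−1.99, SE 0.446, adjusted p 0.0451 in edgeR). The third that fell was Cebpa, a liver factor named here after its values were seen, at 109.3 and 86.1 CPM with APAP and 204.8 to 286.8 CPM with saline (−1.35, SE 0.264, adjusted p 0.0330 in edgeR).

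The calls of the 3 regulators that fell rested on most of the libraries. With library size scaling they were also lost, with adjusted p of 0.0722 for Mlxipl, 0.0616 for Klf15 and 0.0690 for Cebpa. The call of Mlxipl held only without WT1 and was lost without APAP1 (−2.24, adjusted p 0.187), APAP3 (−2.06, 0.154), WT2 (−1.72, 0.0912) or WT3 (−2.18, 0.0584) and with a term for muscle RNA (−1.93, 0.0601). Klf15 was lost without any 1 of them, APAP1 (−1.53, adjusted p 0.208), APAP3 (−2.68, 0.0543), WT1 (−2.21, 0.0563), WT2 (−1.98, 0.141) or WT3 (−1.76, 0.0723). Cebpa held only without WT3 and was lost without APAP1 (−1.53, adjusted p 0.135), APAP3 (−1.20, 0.153), WT1 (−1.22, 0.0663) or WT2 (−1.33, 0.121). By the rule of unadjusted P and 1.5-fold change, 3 of the 25 regulators were higher and 10 lower, against 12.3% and 11.2% of all genes tested.

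**Figure D4:**
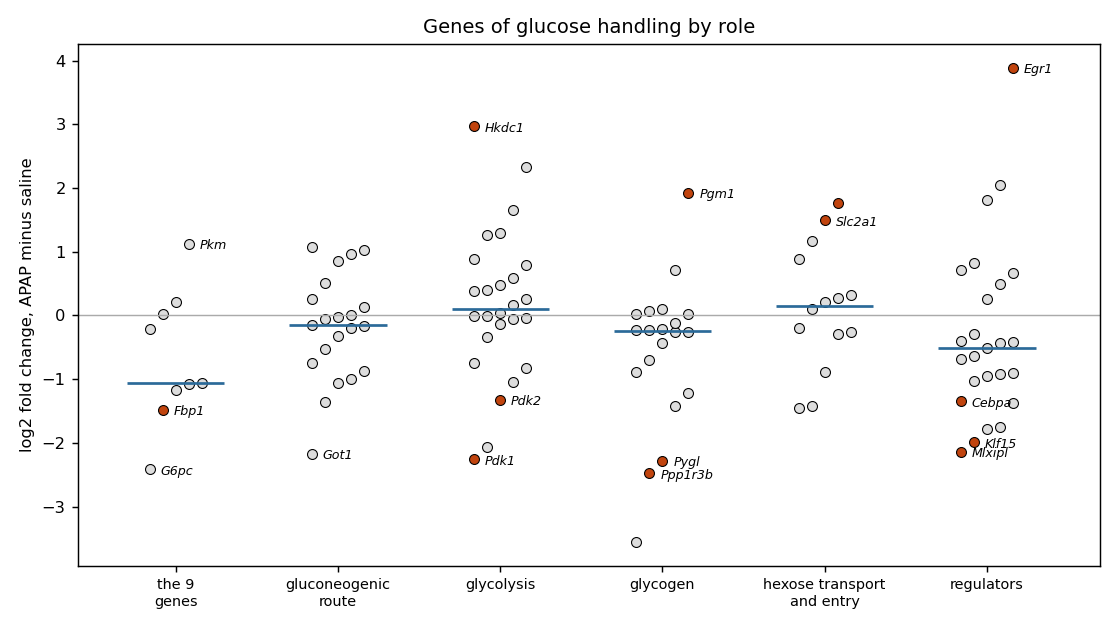
Fitted log2 fold change (APAP minus saline) of each tested gene of the 5 lists and of the 9 genes, 1 point per gene, with called genes in orange and a line at each list's median. Of the 106 genes outside the 9, 5 rose and 7 fell, and no gene of the gluconeogenic route list was called.

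The genes closest to the 2 extremes in pattern over the 5 libraries were found by the root mean square difference of centred log2(CPM + 0.5) values, over 7892 genes. Closest to Pkm were Dnajc13 (difference 0.0993), Inhbe (0.104) and Fam214b (0.110). Inhbe, which encodes a hepatic activin subunit, was at 40.3 and 55.4 CPM after APAP, against 15.9, 21.3 and 25.1 CPM with saline. Among the 3 closest to G6pc were Dio1 (0.317) and Cyp2e1 (0.334), at a distance larger than that of the neighbours of Pkm. Cyp2e1, the centrilobular enzyme that turns APAP into its reactive metabolite, was at 782.5 and 1593 CPM after APAP, against 8353, 5265 and 4363 CPM with saline.

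Markers of liver zones were read beside these genes. Centrilobular genes, of which 10 of 12 were called lower, summed to 1241 CPM in APAP1, 2212 CPM in APAP3 and 9385 to 15540 CPM with saline. Periportal genes, of which 3 of 11 were called lower, summed to 7909 CPM in APAP1, 5416 CPM in APAP3 and 10840 to 11280 CPM with saline. Of all genes tested, 3.53% were called lower. The centrilobular Lgr5 (2 and 6 counts in APAP1 and APAP3) passed the filter on low counts only through the saline livers. The periportal genes called were Cyp2f2 (192.5 and 298.8 CPM in APAP1 and APAP3), Gls2 (73.7 and 91.8 CPM) and Ass1 (422.5 and 466.3 CPM), named after their values were seen. These 3 genes, Sds and Hsd17b13 were higher in APAP3 than in APAP1. Hal, Cps1, Arg1, Asl, Aldh1b1 and Ctsc were lower in APAP3, as was the periportal sum, of which Cps1 and Arg1 make up most. Of the 11, 3 had a fitted change above 0. The part of zonal hepatocyte loss in the levels of the 9 genes was not tested.

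Comparing libraries with like muscle content kept the direction of the 3 gluconeogenic enzymes. This outcome was fixed beforehand, since both APAP livers lay below every saline liver for them and for Pklr, and above for Pkm. Between APAP1 and WT1, the pair without muscle RNA, the APAP level was 0.242 of the saline level for Pck1, 0.0723 for G6pc, 0.272 for Fbp1 and 0.303 for Pklr. Between APAP3 and the mean of WT2 and WT3, which held muscle RNA, it was 0.642 for Pck1, 0.375 for G6pc, 0.429 for Fbp1 and 0.646 for Pklr. Pkm was 2.15-fold and 2.43-fold higher in the same comparisons. These ratios rest on 1 APAP liver each and have no test. Direction turned for 4 of the 9 genes: Ppargc1a (1.32 without and 0.334 with muscle RNA), Hk2 (1.59 and 0.858), Gys2 (0.583 and 1.45) and Slc2a2 (0.856 and 1.45). For Gys2 and Slc2a2 the turn was fixed too, since APAP1 lay below and APAP3 above every saline liver. In a fit with muscle RNA as a term, Hk2 had a log2 fold change of 0.13 (adjusted p 0.890 in edgeR) and Ppargc1a one of −0.71 (0.535).

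**Figure D5:**
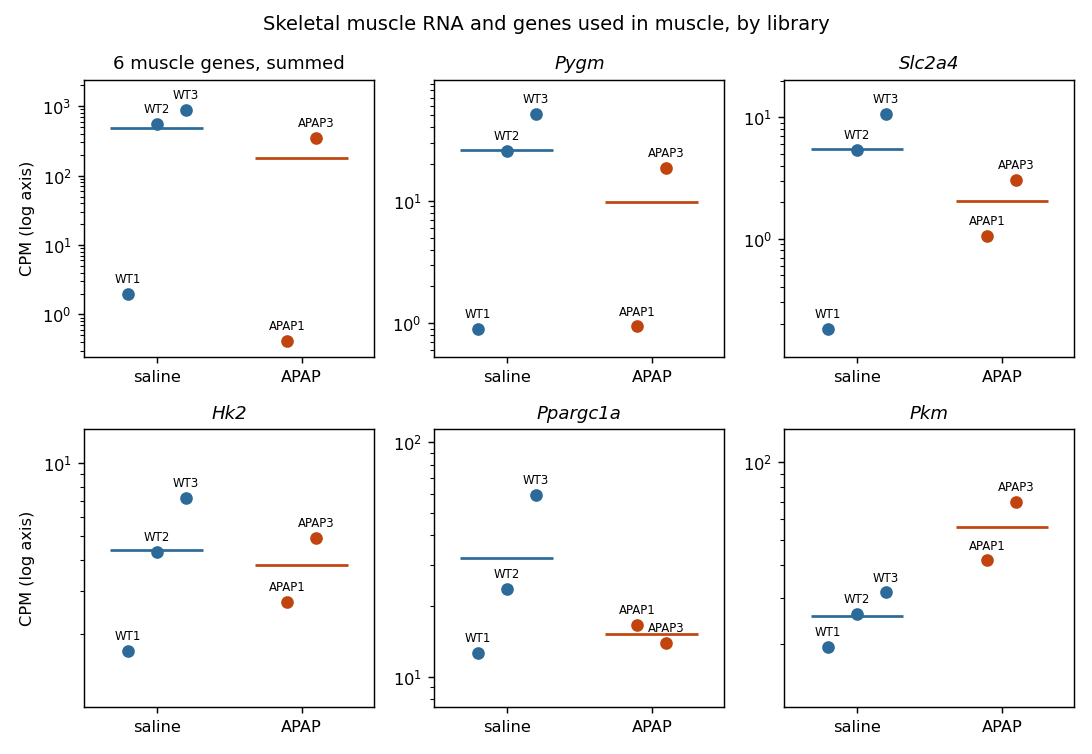
Summed level of the 6 skeletal muscle genes in each library beside the levels of Pygm (the glycogen phosphorylase of muscle), Slc2a4, Hk2, Ppargc1a and Pkm (TMM-scaled CPM, log10 axis, a line at each group mean). APAP3, WT2 and WT3 hold 352.7 to 886.8 CPM of muscle RNA, and APAP1 and WT1 hold 0.411 and 1.97 CPM.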

How the data were processed

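Liver RNA of saline and APAP mice (3 samples per group per the labels) was sequenced for the study by SHBIO on an Illumina NovaSeq platform and aligned with HISAT2. The deposited table holds raw read counts per gene, without normalization. The build in the submitters' processing notes is GRCm38 (mm10), and program versions, annotation and strand setting are not given in the sources used here. Columns of 2 APAP and 3 WT libraries were analysed, the WT columns as the saline group without sample numbers. The 5 other per-sample columns (FPKM) were not used.

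Tests used edgeR 4.0.16 under R 4.3.3 (filterByExpr with minimum count 10 and minimum total 15, TMM, glmQLFit and glmQLFTest, Benjamini-Hochberg adjustment), tested first on simulated data. The tests had been planned for 3 libraries per group. Of 34745 genes, 13734 were tested. The common dispersion was 0.111. SEs were derived from the log2 fold change and the F statistic. A floor of 3 counts was 0.176 to 0.269 CPM, which covers counting error only. Alternatives were DESeq2 1.42.0, other scalings, filters and tests, a fold change threshold of 1.5 with unadjusted P, and each library left out. Those for muscle RNA (libraries over 100 CPM of 6 muscle genes) and the word TTACGTNA were chosen after seeing the data. Promoters came from RefSeq, shared 50-base words from GENCODE M21 transcripts, and plots from matplotlib 3.10.9 in Python 3.11.15.

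The 9 genes and all lists were chosen with earlier results of these data known. Named beside the 9 genes are their isoenzymes and partners (among them Hk1, Hk3, Hkdc1, Pck2, Pcx, Fbp2, G6pc3, Slc37a4, Gys1, Pygl, Slc2a1 and Ppargc1b), up to 3 called genes per list with the largest change, and the 3 genes closest in pattern to the highest and the lowest of the 9. Some genes that this rule names are not reported here. The lists of cell type markers covered hepatocytes, their periportal and centrilobular zones, neutrophils, monocytes and macrophages, Kupffer, endothelial and stellate cells, cholangiocytes, lymphocytes, muscle, adipocytes and erythroid cells.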

Additional observations from a re-analysis of the deposited data

How the results depend on the processing

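With 2 APAP livers, whose sex-linked genes differed from those of every saline liver, few calls were stable. No paired analysis was possible because the WT columns carry no sample number that links them to a numbered saline sample, and no replicate block was fitted.

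Of the 9 genes, 3 were called with library size only, 3 with no filter beyond 1 count, 2 with at least 10 counts in every library, 3 by the likelihood ratio test, 3 by the exact test, 5 by DESeq2, 4 by fold change and unadjusted P, 0 in the libraries with muscle RNA only (edgeR, in which 2573 of all genes had an unadjusted P under 0.05) and 0 to 1 with each library left out. Fbp1 was called under all 8 alternatives of scaling, filter and test, G6pc under 6, Pkm under 5, and Pck1 and Pklr under 1 each. With a muscle RNA term 1 was called, Pkm in place of Fbp1. Of all genes, 993 were called, and 1835 by the likelihood ratio test, 1776 by the exact test, 2093 by DESeq2, 3228 by fold change and unadjusted P, 140 in the libraries with muscle RNA only and 165 to 922 with each library left out. Of the other pathway genes, 12 were called, and under the same settings 26, 26, 33, 41, 1 and 3 to 11. A count of 18 (no filter beyond 1 count) and one of 17 (at least 10 counts in every library) stand beside these 12. Scaling by library size only shifted the median of all genes by 0.39 and the share of calls that were higher from 51.2% to 77.8%, and the pathway calls from 5 higher and 7 lower to 9 and 3.

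Signs were followed for 31 genes (the 9 and the named and called pathway genes), and not for the rest. Those that turned were all of genes that were not called, namely Gys2 (−0.023 with size factors and −0.023 with DESeq2, −0.0011 with the muscle term), Hk2 (0.10 with library size only, 0.13 with the muscle term), Pcx (−0.0379 with size factors and −0.0377 with DESeq2, −0.0107 with the muscle term), Hk3 (0.0242 with upper-quartile factors, 0.36 with library size only, 0.0029 with the strict filter, 0.0114 with the muscle term, 0.18 in muscle libraries only), Slc37a4 (0.20), Gys1 (0.10, and 0.16 with the muscle term) and Ppargc1b (0.15) with library size only, and Pck2 (−0.39 in muscle libraries only). With each library left out, the range was −0.66 to 0.47 for Gys2, −0.72 to 0.33 for Hk2, −0.14 to 0.49 for Slc2a2, −0.0806 to 0.17 for Pcx, −0.25 to 0.19 for Hk3, −0.66 to 0.14 for Slc37a4, −0.60 to 0.33 for Gys1, −1.57 to 0.35 for Ppargc1b and −0.28 to 0.43 for Pck2. The cause was not tested. The difference in the log2 ratio of Pkm to Pklr kept its sign with raw counts, with another pseudocount and without any 1 library (1.898 to 2.62). Raw counts could not turn it, since the lengths cancel in the difference. Leaving out 1 library could not either, since both APAP ratios were above every saline ratio.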

Other observations

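Markers of other cells were summed in each group beside those given above. Kupffer cell genes (7 genes, 0 called) summed to 214.2 to 431.6 CPM with APAP and 215.8 to 303.6 CPM with saline, sinusoidal endothelial genes (8 genes, 0 called) to 184.4 to 266.9 CPM against 188.1 to 286.0 CPM, and stellate cell genes (8 genes, 1 higher) to 329.5 to 433.2 CPM against 392.8 to 442.7 CPM. The ranges of these 3 lists overlapped. Cholangiocyte genes (1 of 5 tested higher) did not overlap, at 43.5 to 73.8 CPM with APAP and 7.62 to 10.5 CPM with saline. Sox9 led these sums, at 32.5 CPM in APAP1 and 35.0 CPM in APAP3. Without Sox9 they were 41.3 CPM in APAP1 and 8.47 CPM in APAP3, against 4.39 to 6.21 CPM with saline. Lymphocyte genes summed to at most 7.91 CPM, adipocyte genes to at most 4.94 CPM, and erythroid genes to 43.9 to 144.7 CPM in any library, with 0 called in each list. Of the 10 hepatocyte genes, 1 was called lower.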
